A study of Mus musculus with 4 samples.

Results

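Lipocalin 2, hepcidin and 8 further genes of iron handling were followed across livers of ethanol-fed mice with and without an ethanol binge. The members were chosen by gene symbol: Lcn2, Hamp, Tfrc, Tfr2, Trf, Slc40a1, Fth1, Ftl1, Cp and Hpx, which are 10 of the 22155 rows of the count table. Messenger RNA had been sequenced from whole liver of wild-type C57BL/6 mice, an inbred strain, aged 8 to 10 weeks. The gavage group had received the Lieber-DeCarli liquid diet with 5% ethanol for 10 days and then an ethanol binge of 5 g per kg body weight through a stomach tube, with the liver taken 9 h later. The ethanol alone group had the same feeding without the binge. Each group held 2 libraries, assigned by their titles, since the treatment text in the labels describes the binge for all 4 samples. The labels used here state neither the sex of the mice nor a control gavage nor the hour at which ethanol alone livers were taken. Nor do they say that the 2 libraries of a group are separate animals, and each p-value therefore reflects only how far these libraries differ. Some genes differed within a group by more than repeats of the same RNA would. Hsd3b5 had 2806 and 1 counts in replicates 1 and 2 of ethanol alone. Cfd had 723 and 0 counts in replicates 1 and 2 of the gavage group.

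The libraries held 28791281 to 30347558 counts, and the 10 members took 0.836% to 1.11% of them. Replicate 1 of ethanol alone stood apart from the other libraries in sex-biased liver genes, a list added after its values had been seen. The summed male-type genes reached 2032 CPM there, against 202 and 269 CPM in the gavage libraries and 458 CPM in the other ethanol alone library. CPM is a count scaled to the library total after TMM, a correction for library composition. The summed female-type genes were low in the same library, at 729 CPM, against 2608 to 2837 CPM in the other libraries. Most of the 729 CPM, 498 CPM, was Cyp2c69, which went the other way. It had 248 and 151 CPM after gavage and 350 CPM in the other ethanol alone library. Sult2a1 had 0.0732 CPM there, against 113 and 231 CPM after gavage and 295 CPM in the other ethanol alone library. The 6 Y-linked genes had 0 or 1 count in every library. Several adipose tissue markers were unequal within groups. Adipoq, the hormone adiponectin, had 8.92 and 0.0664 CPM in gavage replicates 1 and 2, against 5.53 and 0 CPM with ethanol alone, and Cfd and Plin1 were at 0 in both libraries numbered 2. Other members of that list of 8 differed from this: Cidec, a lipid droplet protein, had 15.7 and 33.9 CPM after gavage against 3.66 and 0.529 CPM, and Car3, carbonic anhydrase 3, had 549 and 558 CPM against 1975 and 1924 CPM. The list summed to 663 and 604 CPM after gavage against 2040 and 1933 CPM, mostly Car3, with 6 of 7 tested genes higher and 1 lower. Hepatocyte markers were abundant throughout, with a sum of 101140 and 124543 CPM in gavage livers against 151594 and 130782 CPM with ethanol alone, and 9 of the 10 were lower and 1 higher (median log2 fold change -0.70).

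Iron circulates bound to transferrin, enters cells through transferrin receptor 1 and is stored in ferritin, a shell built from heavy and light chains. It leaves cells through ferroportin, encoded by Slc40a1, and hepcidin, a peptide hormone made by hepatocytes, causes ferroportin to be taken in and degraded. Hepcidin transcription is driven by BMP ligands through SMAD proteins and by interleukin 6 through STAT3, while lipocalin 2 is an acute-phase protein that binds bacterial siderophores, the small molecules with which bacteria take up iron.

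After the binge, Lcn2 stood far above and Hamp below ethanol feeding alone. The log2 fold changes of the other 8 members lay between -0.91 for Trf and 0.18 for Slc40a1. No member passed the test. With edgeR's quasi-likelihood test and Benjamini-Hochberg adjustment over 13309 genes at a threshold of 0.05, 0 of the 10 members and 0% of all genes passed. No gene had an adjusted p below 0.0638. At an unadjusted p under 0.05 there were 2 members, Lcn2 higher and Hamp lower, where 18.8% of all tested genes met that limit (8.91% higher and 9.85% lower). With limma-voom the same 2 members met it, where 18.4% of all genes did (8.91% higher and 9.49% lower). The same 2 members had a log2 fold change beyond 1 in size, as did 9.84% of all genes (5.56% higher and 4.28% lower). All 10 members passed the filter on low counts, so each could be tested. The CPM of the groups did not overlap for 8 members, 2 higher (Lcn2 and Slc40a1) and 6 lower, against 54.7% of all tested genes (27.5% higher and 27.2% lower), so a lack of overlap in 4 libraries carries little weight. The median log2 fold change, gavage over ethanol alone, was -0.33 over the members and 0.02 over all tested genes.

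**Figure D1:**
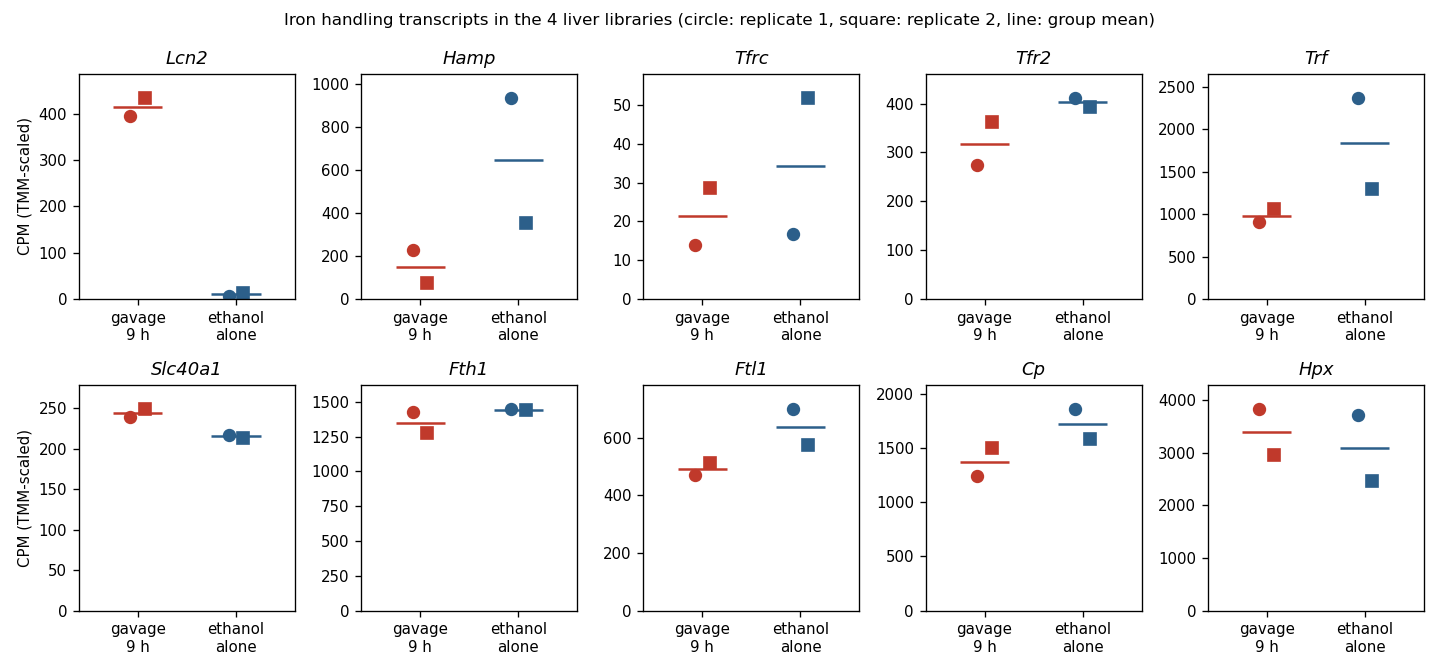
CPM of the 10 members, each panel with its own linear axis from 0, with gavage 9 h on the left and ethanol alone on the right; points are libraries and lines are group means of 2. Lcn2 is separated by the whole range of its panel, Hamp and Trf are highest in replicate 1 of ethanol alone, and Fth1 and Slc40a1 lie in narrow bands.

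Lcn2 (chromosome 2, 32384633 to 32388252, minus strand, GRCm38 coordinates of the whole gene) had 395 and 434 CPM after gavage, against 7.07 and 13.3 CPM in the ethanol alone libraries. Both gavage libraries were high and both ethanol alone libraries low, with a wide gap between the groups. The means were 414 ± 28.1 CPM after gavage and 10.2 ± 4.42 CPM with ethanol alone (SD, n = 2 each), and over the 4 pairings of libraries the ratio lay between 29.6 and 61.5. The log2 fold change was 5.34 (SE 0.41, adjusted p = 0.0675 in edgeR's quasi-likelihood test), with the SE taken as the size of the log2 fold change over the root of its F value. By p-value Lcn2 ranked 6 of 13309 genes. DESeq2 called Lcn2 (adjusted p = 6.22e-52), as it did 8.84% of all genes (3.94% higher and 4.9% lower). The likelihood-ratio test of edgeR called it as well (adjusted p = 1.15e-23), along with 4.13% of all genes (2.14% higher and 1.98% lower). No other member was called by either. With any library left out the log2 fold change was between 4.93 and 5.82.

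Neutrophils store lipocalin 2 in their specific granules, and most tested markers of these cells were also higher after gavage, without passing the test. The 16 neutrophil markers together had 33.6 and 17.7 CPM after gavage, against 11.9 and 11.2 CPM with ethanol alone, so that their sum was highest in replicate 1 of the gavage group. Of these markers, 8 were tested, 7 of them higher, and 4 had an unadjusted p under 0.05, where 8.91% of all genes were higher at that limit. Genes of the list were unequal, and those that follow are named after their values were seen. Prtn3, which encodes proteinase 3, had 3.95 and 1.86 CPM after gavage against 0.476 and 0.132 CPM with ethanol alone (log2 fold change 3.25 ± 0.75 SE, adjusted p = 0.156 in edgeR). S100a9, a calcium-binding protein of neutrophils and monocytes, had 7.93 and 1.99 CPM after gavage against 1.39 and 1.123 CPM. Mmp8, neutrophil collagenase, had 0.701 and 0.299 CPM against 0.0366 and 0.0661 CPM. The ethanol alone values of Mmp8 were 1 and 2 counts, and this gene was not tested. Ltf, which encodes lactoferrin, had 0.255 and 0.0332 CPM after gavage against 0.220 and 0 CPM. Camp, Ngp, Mpo, Elane and Ly6g each had 0 to 3 counts in every library. The part of neutrophils in the level of Lcn2 was not tested. In whole liver, a change in the number of cells of a type and a change in RNA per cell cannot be told apart.

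Other acute-phase plasma proteins lay mostly in the same direction as Lcn2. Of 22 tested, 17 were higher and 5 lower, with a median log2 fold change of 0.88. Unadjusted, 12 of them higher and 2 lower had p under 0.05. At that limit 8.91% of all tested genes were higher and 9.85% lower. None of the 22 was called after adjustment. The 5 lower genes included Alb, Ttr and Serpina1a, with log2 fold changes of -0.21, -0.90 and -0.44, which are also in the list of hepatocyte markers. Serpina3n, an inhibitor of serine proteases chosen for the smallest p of the list, had 2980 and 1797 CPM after gavage against 334 and 400 CPM with ethanol alone. Crp, C-reactive protein, lay in the other direction with the smallest p among the lower genes, at 171 and 261 CPM after gavage against 501 and 503 CPM. Saa1, serum amyloid A1, named after its values were seen, was unequal within the gavage group, at 2243 and 304 CPM against 17.6 and 28.7 CPM with ethanol alone, unlike Lcn2, and it has near-identical copies that can share reads. Of 7 tested receptors, partners and relatives of lipocalin 2, 4 were higher and 3 lower (median log2 fold change 0.02). Unadjusted, 1 of these higher and 1 lower had p under 0.05, and 0 were called. Orm1, the plasma lipocalin orosomucoid 1, had the smallest p among the higher genes, at 1057 and 756 CPM after gavage against 556 and 441 CPM. Receptor transcripts were scarce. Slc22a17, its cell surface receptor, had 0.987 and 0.996 CPM after gavage and 1.17 and 0.793 CPM with ethanol alone, and Lrp2, the endocytic receptor megalin, stayed under 0.66 CPM in every library. Bdh2, an enzyme reported to make a mammalian siderophore and chosen for the smallest p among the lower genes of its list, had 4.78 and 5.45 CPM after gavage against 11.9 and 9.22 CPM (log2 fold change -1.04 ± 0.23 SE, adjusted p = 0.152 in edgeR).

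Hamp (chromosome 7, 30942368 to 30944032, minus strand) encodes hepcidin, and its promoter is shown because the elements through which BMP and interleukin 6 signals reach the gene lie close to its start. The 120 bases before the start are given 5′ to 3′ from RefSeq (GRCm38.p6, minus strand; chr7:30944030-30944149 for Hamp and chr7:30924182-30924301 for its neighbour and near copy Hamp2), with motif matches in capitals.
Hamp: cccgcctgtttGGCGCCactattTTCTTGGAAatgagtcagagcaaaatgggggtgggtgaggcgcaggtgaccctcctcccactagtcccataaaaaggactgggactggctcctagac
Hamp2: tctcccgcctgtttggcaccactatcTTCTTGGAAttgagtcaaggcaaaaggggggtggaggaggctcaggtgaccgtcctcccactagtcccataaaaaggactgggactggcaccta
The first capitals in Hamp, GGCGCC, match the core of a BMP-responsive element at 109 to 104 bases before the start, and the second match the STAT3-type motif TTCNNNGAA at 97 to 89 bases. Hamp2 holds the STAT3-type match, at 94 to 86 bases before its start, and no GGCGCC in the 250 bases searched. On both strands, GGCGCC occurs in the same 250 bases of 9.59% and TTCNNNGAA of 7.02% of 32851 promoters, and the matches in Hamp do not overlap. The C/EBP-type motif TTGCNNCAA, in 1.74% of promoters, and the kB-type motif, in 7.25%, had no match in either gene, and none of the 4 motifs had a match before the listed start of Lcn2. Among the other members, GGCGCC occurred before 1 of the 2 listed starts of Tfrc, and the kB-type motif before 1 start of Tfr2 and that of Ftl1. Promoters were matched for 8 of the 10 members, all but Trf and Slc40a1. Motif matches describe the letters only.

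Hamp had 228 and 74.3 CPM after gavage, against 936 and 353 CPM in the ethanol alone libraries. Both gavage libraries lay below both ethanol alone libraries, but the libraries within each group differed by a ratio of 3.07 in the gavage group and 2.65 with ethanol alone. The means were 151 ± 109 CPM after gavage and 645 ± 412 CPM with ethanol alone (SD, n = 2 each). Over the 4 pairings of libraries, ethanol alone stood 1.55 to 12.6 times above gavage. The log2 fold change was -2.09 (SE 0.71), with an adjusted p of 0.229 in edgeR's quasi-likelihood test. Without replicate 1 of ethanol alone, the library with male-type expression, it was -1.24, and without replicate 1 of the gavage group it was -3.11. The part of that library's sex-biased expression in the difference was not tested.

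Hamp2, the neighbouring copy, did not share this pattern. It had 267 and 80.2 CPM after gavage, against 61.1 and 293 CPM in the ethanol alone libraries, so the groups overlapped (log2 fold change -0.03, SE 0.87). In replicate 1 of ethanol alone Hamp was at its highest and Hamp2 at its lowest. Hamp made up 46.1% and 48.1% of the joint count of both genes in the gavage libraries and 93.9% and 54.6% in replicates 1 and 2 of ethanol alone. The joint level was 495 and 155 CPM after gavage against 997 and 647 CPM, again without overlap. When both genes were counted as 1, an alternative chosen after seeing the data, the log2 fold change was -1.34 (adjusted p = 0.299 in edgeR's quasi-likelihood test). The transcripts of both genes are 88.8% identical, and 16.6% of the 50-base stretches of Hamp occur unchanged in Hamp2, so the counting may have split or dropped some of their reads. The gene Gm44662 overlaps both on the other strand, and whether counting used strand is not given in the sources used here.

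**Figure D2:**
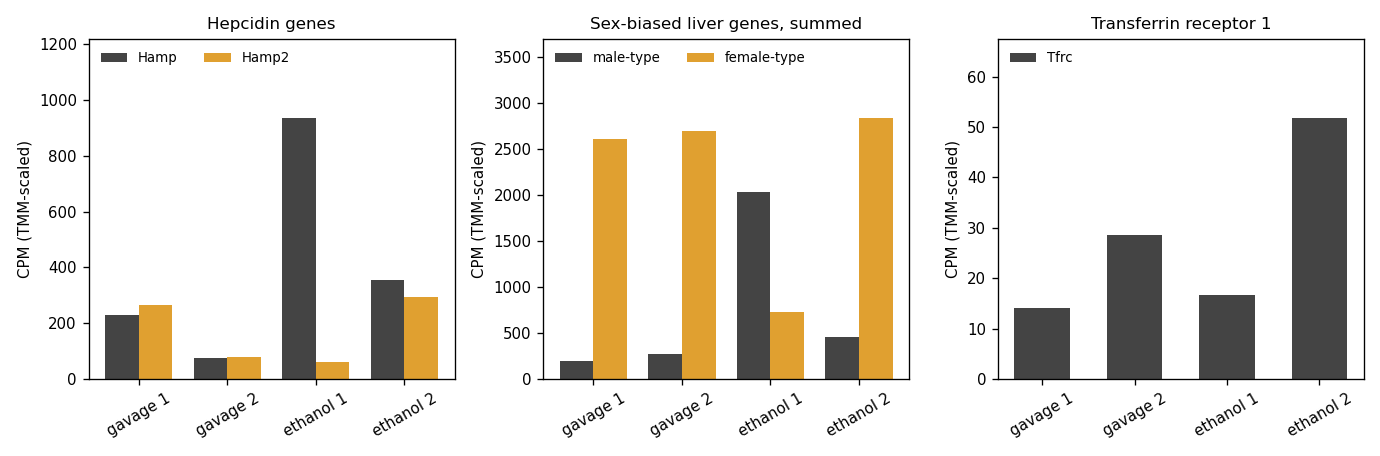
Bars give CPM in each library on linear axes, gavage libraries left of ethanol alone. Hamp and Hamp2 are nearly level in 3 libraries and far apart in replicate 1 of ethanol alone, where male-type genes reach 2032 CPM and female-type genes 729 CPM; Tfrc is lower in the library numbered 1 of each group.

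In the lists that follow, the gene with the smallest p in each direction is named for that value. Counts at an unadjusted p under 0.05 stand beside 8.91% of all tested genes higher and 9.85% lower at that limit. Genes of the BMP arm upstream of hepcidin were mostly level, whereas the genes that SMAD signalling itself switches on were mostly lower after gavage. Of 15 tested genes of BMP and SMAD control, 8 were higher and 7 lower, with a median log2 fold change of 0.02, 0 called, and, unadjusted, 1 of them higher and 2 lower had p under 0.05. Bmp6, the ligand that sets hepcidin to iron stores, had 3.69 and 3.82 CPM after gavage against 5.82 and 6.84 CPM (log2 fold change -0.75 ± 0.23 SE, adjusted p = 0.206 in edgeR). Bmp2, the second BMP ligand of liver endothelium, overlapped between groups, at 31.0 and 40.5 CPM against 42.9 and 38.9 CPM. Hfe2, which encodes the BMP co-receptor hemojuvelin, had 93.5 and 101 CPM after gavage against 104 and 108 CPM. Hfe, the hemochromatosis protein that binds transferrin receptor 1, had 43.3 and 43.9 CPM against 48.9 and 58.3 CPM. Tmprss6, the protease that cleaves hemojuvelin and restrains hepcidin, had the smallest p among the lower genes, with 305 and 356 CPM after gavage against 635 and 583 CPM (log2 fold change -0.88 ± 0.23 SE, adjusted p = 0.177 in edgeR). Erfe, the erythroid hormone that lowers hepcidin, had at most 0.0955 CPM in any library. Fgl1, a liver protein also reported to lower hepcidin, had the smallest p among the higher genes, at 894 and 901 CPM after gavage against 511 and 310 CPM.

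Of the 8 SMAD feedback targets tested, 6 were lower and 2 higher, with a median log2 fold change of -0.86. At an unadjusted p under 0.05, 5 were lower and 0 higher, where 9.85% of all tested genes were lower at that limit, and 0 were called after adjustment. Atoh8, a transcription factor that follows BMP signalling and hepcidin, had 10.0 and 12.3 CPM after gavage against 43.9 and 26.2 CPM (log2 fold change -1.65 ± 0.30 SE, adjusted p = 0.133 in edgeR). Id1, an inhibitor of DNA binding and a standard readout of hepatic BMP signalling, had 7.77 and 8.87 CPM against 17.5 and 14.2 CPM. Smad7, an inhibitory SMAD, had 13.3 and 12.4 CPM after gavage against 19.8 and 24.4 CPM. For these 3 genes both gavage libraries lay below both ethanol alone libraries. Smad6, the other inhibitory SMAD, overlapped, at 8.69 and 9.10 CPM against 7.94 and 11.4 CPM. DESeq2 called 5 of the 8 lower and 0 higher, where it called 4.9% of all genes lower and 3.94% higher. Id2, a further inhibitor of DNA binding, had the smallest p among the higher genes, at 159 and 141 CPM after gavage against 91.9 and 141 CPM. Smad9, named after its values were seen, had 3.31 and 4.55 CPM after gavage against 28.2 and 6.41 CPM, with its highest value in replicate 1 of ethanol alone. Without that library, the log2 fold changes of Atoh8, Id1, Smad7 and Smad9 were -1.26, -0.80, -0.95 and -0.73.

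The interleukin 6 and STAT3 arm was split, with several of its signalling genes higher after gavage. Of 11 tested genes, 5 were higher and 6 lower (median log2 fold change -0.03), and, unadjusted, 4 of them higher and 0 lower had p under 0.05, with 0 called after adjustment. Stat3, the transcription factor itself, had 269 and 250 CPM after gavage against 121 and 116 CPM (log2 fold change 1.13 ± 0.20 SE, adjusted p = 0.133 in edgeR). Socs3, the feedback inhibitor that STAT3 induces, had 32.2 and 18.0 CPM against 8.93 and 7.004 CPM (log2 fold change 1.66 ± 0.33 SE, adjusted p = 0.140 in edgeR). Il6st, the shared receptor chain gp130, had 359 and 404 CPM after gavage against 210 and 256 CPM, whereas Il6ra, the specific receptor, had 111 and 119 CPM against 151 and 129 CPM. DESeq2 called 4 genes of this arm higher and 0 lower, where it called 3.94% of all genes higher and 4.9% lower. Il6 itself had at most 0.0732 CPM in any library. Creb3l3, a transcription factor of the acute phase that also binds the hepcidin promoter, overlapped between groups, at 243 and 382 CPM against 348 and 289 CPM. Cebpb and Cebpd, transcription factors of the acute phase, overlapped too, with Cebpb at 96.2 and 67.9 CPM after gavage against 205 and 78.1 CPM and Cebpd at 13.7 and 7.34 CPM against 10.8 and 5.35 CPM.

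**Figure D3:**
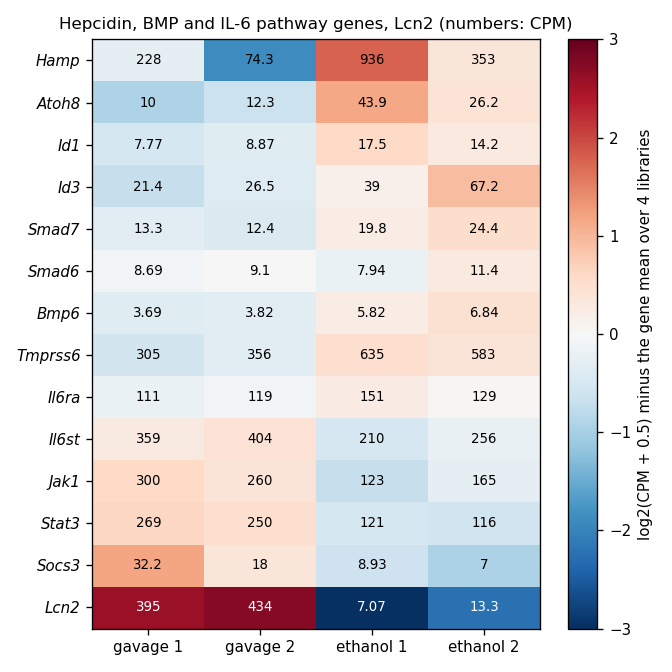
Colour gives log2(CPM + 0.5) minus the mean of the gene over the 4 libraries and numbers give CPM, with gavage libraries in the left columns. Hamp, Atoh8, Id1, Id3, Smad7, Bmp6 and Tmprss6 are bluer after gavage, while Il6st, Jak1, Stat3, Socs3 and Lcn2 are redder.

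Ferritin and transferrin receptor 1 are controlled less by transcription than by iron regulatory proteins, which bind a hairpin in their messenger RNA when iron is scarce, blocking translation of ferritin and stabilising the receptor's transcript. The hairpins that a search of the GENCODE transcripts found in members are shown 5′ to 3′ in GRCm38 coordinates, with the loop in capitals and T for U.
Tfrc (chr16:32631219-32631247, plus strand): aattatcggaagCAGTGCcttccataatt
Tfrc (chr16:32631598-32631626, plus strand): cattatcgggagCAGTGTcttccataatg
Tfrc (chr16:32631663-32631691, plus strand): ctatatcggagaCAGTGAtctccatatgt
Tfrc (chr16:32631710-32631738, plus strand): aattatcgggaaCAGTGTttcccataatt
Fth1 (chr19:9982732-9982760, plus strand): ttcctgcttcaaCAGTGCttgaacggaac
Ftl1 (chr7:45459779-45459807, minus strand): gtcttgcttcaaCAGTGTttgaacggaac
The search took the letters CNNNNNCAGTGN on the transcript strand, with a base other than G last and the 5 bases on each side of the loop able to pair. It gave 4 matches in the 3′ UTR of Tfrc and 1 in the 5′ UTR of each ferritin gene, and none in those of Lcn2, Hamp, Tfr2, Cp and Hpx. Matches are given for these 8 members only. Trf and Slc40a1 were left out because they had no promoter entry, not because of their UTRs. Whether either holds a match is not reported here. Over all protein-coding genes, 0.0845% of 20121 5′ UTRs and 0.412% of 20656 3′ UTRs held a match, with no correction for length.

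Tfrc (chromosome 16, 32608920 to 32632794) had 14.0 and 28.6 CPM after gavage, against 16.7 and 51.8 CPM in the ethanol alone libraries. The groups overlapped, and the libraries differed within groups by ratios of 2.04 after gavage and 3.11 with ethanol alone, more than the group means did. The log2 fold change was -0.69 (SE 0.61, edgeR adjusted p = 0.573), and without replicate 2 of ethanol alone its sign changed, to 0.29. In each group the library with the lower Tfrc was the one with the higher Hamp. Red cell precursors also carry much of this receptor. The 11 erythroid markers summed to 98.2 and 75.5 CPM after gavage against 202 and 97.3 CPM, mostly globin transcripts. Their part in the level of Tfrc was not tested.

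Tfr2 (chromosome 5, 137569840 to 137587481), the hepatocyte receptor that senses loaded transferrin and promotes hepcidin, had 274 and 362 CPM after gavage against 412 and 393 CPM with ethanol alone. The groups did not overlap, but by a margin smaller than the difference between the gavage libraries (log2 fold change -0.34 ± 0.24 SE, adjusted p = 0.482 in edgeR). Per kilobase of exon, Tfrc stood at 0.0358 and 0.0553 of the level of Tfr2 in the gavage libraries and at 0.0284 and 0.0925 with ethanol alone, so Tfr2 was the more abundant receptor transcript in every library.

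Trf (chromosome 9, 103204001 to 103230444), which encodes transferrin, the plasma carrier of iron, had 902 and 1055 CPM after gavage, against 2368 and 1298 CPM in the ethanol alone libraries. The high value came from replicate 1 of ethanol alone, where Hamp was highest as well. The means were 979 ± 108 CPM after gavage and 1833 ± 756 CPM with ethanol alone (SD, n = 2 each), with a log2 fold change of -0.91 (SE 0.36, edgeR adjusted p = 0.266). Without that library it was -0.43. The annotated gene Gm20425 overlaps Trf on the same strand and holds 79.8% of its 50-base stretches. It had 0 counts in every library. That count cannot show whether reads of Trf were dropped as shared, since the handling of such reads is not given.

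Fth1 (chromosome 19, 9980598 to 9985098), the ferritin heavy chain that oxidises iron for storage, had 1425 and 1276 CPM after gavage against 1448 and 1443 CPM with ethanol alone. The log2 fold change was -0.10 (SE 0.23, edgeR adjusted p = 0.849), and leaving out each library in turn kept it between -0.18 and -0.03. Ftl1 (chromosome 7, 45457944 to 45459884), the light chain that helps to form the iron core, had 469 and 514 CPM after gavage against 699 and 574 CPM (log2 fold change -0.37 ± 0.23 SE, adjusted p = 0.430 in edgeR). Both gavage libraries lay below both ethanol alone libraries for each chain, and for Fth1 the gap was smaller than the difference between the gavage libraries. Per kilobase, the ratio of Fth1 to Ftl1 was 1.17 and 0.959 in the gavage libraries and 0.80 and 0.972 with ethanol alone. The level of Ftl1 is less certain than that of Fth1, because 78.9% of its 50-base stretches occur in other genes, 73.4% in the retrogene Ftl1-ps1, which had 1 count in replicate 1 of ethanol alone and 0 in the other libraries. For Fth1 that share was 4.01%.

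Slc40a1 (chromosome 1, 45908068 to 45926523), the iron exporter ferroportin, had 239 and 249 CPM after gavage against 217 and 214 CPM with ethanol alone. Replicates were close, with within-group ratios of 1.04 and 1.02, and the 2 gavage libraries lay above the others by a small margin (log2 fold change 0.18 ± 0.20 SE, adjusted p = 0.656 in edgeR). Kupffer cells, the liver macrophages that recycle iron from red cells, express much ferroportin. Their 14 markers together had 471 and 553 CPM after gavage, against 813 and 793 CPM with ethanol alone. Of the 14, 12 were lower and 2 higher, and 9 were lower at an unadjusted p under 0.05. At that limit 9.85% of all tested genes were lower, and 0 of the 14 markers were called after adjustment. The part of macrophage content in the level of Slc40a1 was not tested.

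Cp (chromosome 3, 19957054 to 20009145) encodes ceruloplasmin, the copper enzyme of plasma that oxidises exported iron. It had 1248 and 1501 CPM after gavage against 1862 and 1585 CPM with ethanol alone, with a log2 fold change of -0.33 (SE 0.25, edgeR adjusted p = 0.512). Hpx (chromosome 7, 105591613 to 105600137) encodes hemopexin, the plasma protein that binds free heme, and was the most abundant member. Its groups overlapped, at 3831 and 2962 CPM after gavage against 3725 and 2457 CPM, and in both groups the library numbered 1 was higher. The log2 fold change was 0.14 (SE 0.32, edgeR adjusted p = 0.850) and turned negative without replicate 1 of the gavage group (-0.06) or without replicate 2 of ethanol alone (-0.19). Ceruloplasmin and hemopexin are themselves counted among acute-phase proteins, but their fold changes were far smaller than that of Lcn2. The gene Hps3 overlaps Cp on the other strand.

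Haptoglobin and heme oxygenase 1 transcripts were higher after gavage, without passing the test. Hp, which binds free hemoglobin, had 3494 and 3440 CPM after gavage against 2088 and 1533 CPM (log2 fold change 0.94 ± 0.27 SE, adjusted p = 0.198 in edgeR). Hmox1, which breaks down heme and releases its iron, had 42.6 and 76.0 CPM against 22.7 and 30.03 CPM (log2 fold change 1.17 ± 0.33 SE, adjusted p = 0.194 in edgeR). Cd163, the macrophage receptor for hemoglobin bound to haptoglobin, overlapped, at 24.3 and 56.4 CPM after gavage against 31.3 and 40.9 CPM. Of 8 tested genes of heme scavenging and export, 3 were higher and 5 lower (median log2 fold change -0.37), and, unadjusted, 2 of them higher and 2 lower had p under 0.05, with 0 called. Hebp1, a heme-binding protein and the lower gene with the smallest p, had 99.7 and 110 CPM after gavage against 266 and 195 CPM. The heme exporters Flvcr1 and Flvcr2 were not analysed here.

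**Figure D4:**
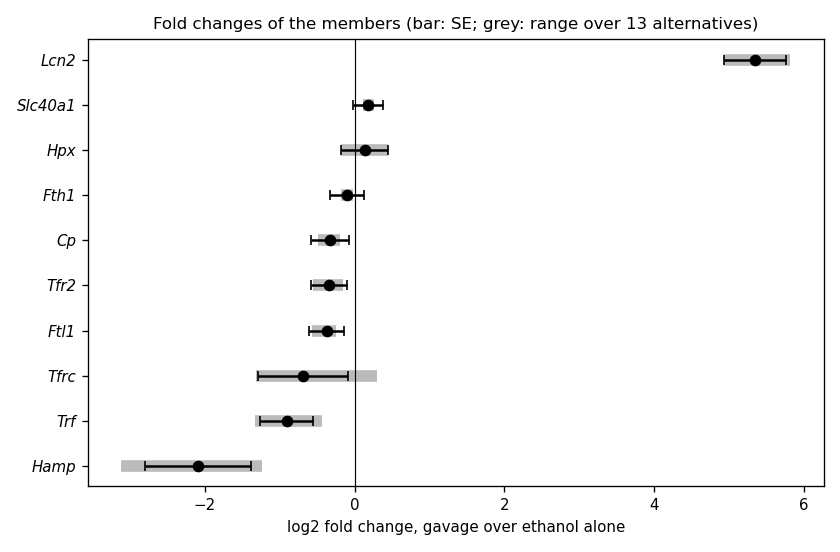
Points are log2 fold changes of gavage over ethanol alone from edgeR's quasi-likelihood fit, black bars their SE and grey bands the range over 13 alternatives in processing. Lcn2 stands alone at 5.34, Hamp at -2.09 has a wide band, and the bands of Tfrc and Hpx cross 0.

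Compared per kilobase of exon, so that genes of different length can be ranked, Hpx had the highest mean over the 4 libraries and Tfrc the lowest. Hpx lay between 1639 and 2556 CPM per kilobase and Hamp between 181 and 2283, so these neighbours overlapped. Trf, Ftl1 and Fth1 followed with means of 424, 421 and 403 CPM per kilobase and overlapped each other. This order rests on the union of exons, which for Fth1 is 3469 bases against 2062 in its longest transcript. For Slc40a1 these lengths are 9000 and 3928 bases. With the longest transcript, the mean ratio of Fth1 to Ftl1 moved from 0.976 to 1.19. The ranking was not repeated with that length. Cp came next, between 131 and 195 CPM per kilobase, apart from its neighbours on both sides. Tfr2 had 63.3 to 95.0 CPM per kilobase and Slc40a1 23.7 to 27.7. Lcn2 spanned that part of the order, with 150 and 166 CPM per kilobase after gavage against 2.69 and 5.08 with ethanol alone. After gavage it lay in the range of Cp, and with ethanol alone at that of Tfrc, which had 2.27 to 8.38 CPM per kilobase.

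Among further genes of iron handling, transporters and reductases were split. Of 8 tested genes of uptake and reduction, 4 were higher and 4 lower (median log2 fold change 0.21), and, unadjusted, 3 of them higher and 2 lower had p under 0.05, with 0 called. Slc39a14, the hepatocyte importer of iron that is not bound to transferrin, had 556 and 538 CPM after gavage against 255 and 314 CPM (log2 fold change 0.94 ± 0.23 SE, adjusted p = 0.167 in edgeR). Steap4, a metalloreductase induced in inflammation, had 215 and 189 CPM against 100 and 146 CPM. Steap3, the reductase that serves iron delivered by transferrin, lay lower, at 9.36 and 14.0 CPM after gavage against 26.8 and 33.1 CPM (log2 fold change -1.36 ± 0.25 SE, adjusted p = 0.134 in edgeR). Slc11a2, which encodes the importer DMT1, had 24.9 and 26.4 CPM against 31.1 and 39.2 CPM. In the list of export and oxidation, which also held Hamp2, 3 genes were tested, 1 higher and 2 lower. Of these, 0 had an unadjusted p under 0.05 and 0 were called. The median log2 fold change, -0.03, was that of Hamp2. Slc30a10, a manganese exporter, had 109 and 89.5 CPM after gavage against 64.4 and 100 CPM, and Heph, the membrane oxidase hephaestin, had 1.66 and 1.89 CPM against 2.23 and 2.71 CPM.

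The iron sensors were nearly level. Aco1, which encodes iron regulatory protein 1, had 189 and 200 CPM after gavage against 215 and 281 CPM. Ireb2, which encodes iron regulatory protein 2, had 108 and 119 CPM against 104 and 98.1 CPM, and Fbxl5, the ubiquitin ligase subunit that removes it, had 42.5 and 39.2 CPM against 39.5 and 35.0 CPM. Of 6 tested genes of this list, 4 were higher and 2 lower (median log2 fold change 0.15), 0 were called, and the 2 higher at an unadjusted p under 0.05 were the hypoxia-inducible factors Hif1a and Epas1. Epas1 had 471 and 546 CPM after gavage against 229 and 295 CPM. Of 5 tested genes of ferritin loading and turnover, 4 were higher and 1 lower (median log2 fold change 0.07), with 0 under that limit and 0 called. Ncoa4, the receptor that sends ferritin to the lysosome, had 8.98 and 13.5 CPM against 6.81 and 9.65 CPM. Pcbp2, a chaperone that hands iron to ferritin, had 249 and 195 CPM after gavage against 231 and 226 CPM. Of 13 tested genes of mitochondrial iron and iron-sulphur clusters, 4 were higher and 9 lower (median log2 fold change -0.18), with 0 higher and 2 lower under the limit and 0 called. Lyrm4, a partner of the cluster assembly enzyme Nfs1, had the smallest p among the higher genes, at 10.0 and 8.44 CPM after gavage against 7.69 and 6.48 CPM. Over all 11 pathway lists, 104 distinct genes were tested, 54 higher and 50 lower, with a median log2 fold change of 0.02, 23 higher and 16 lower with an unadjusted p below 0.05, and 0 called.

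**Figure D5:**
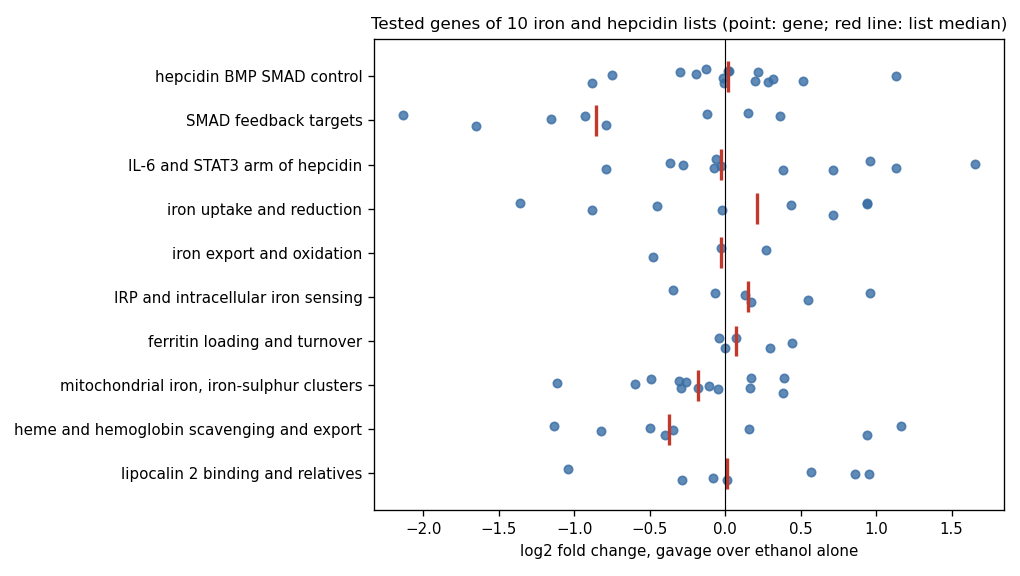
Each point is the log2 fold change, gavage over ethanol alone, of 1 tested gene in 10 of the 11 lists (acute-phase proteins are not drawn), and red lines are list medians. SMAD feedback targets have the lowest median, at -0.86, and the medians of the other lists lie between -0.37 and 0.21.

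Genes whose profile over the 4 libraries came closest to Lcn2 were found by the root mean square difference of log2 CPM, each gene centred on its own mean. Gene models with Gm or Rik symbols were left out. Sult1e1, the estrogen sulfotransferase, was nearest at 0.60, with 13.7 and 11.3 CPM after gavage against 0.146 and 0.958 CPM. Psat1, an enzyme of serine synthesis, followed at 0.67, then Mt2, a metallothionein, at 0.73, with 362 and 330 CPM after gavage against 14.8 and 32.7 CPM. Ctsj and Plch2 followed at 0.75 and 0.77, both at or near 0 with ethanol alone. For Hamp, the nearest genes were Chrna4, a subunit of the nicotinic acetylcholine receptor, at 0.25, with 4.11 and 0.764 CPM after gavage against 13.6 and 5.25 CPM. Aqp8, a water channel, Dusp1, a phosphatase of MAP kinases, Aox3, an aldehyde oxidase, and Ip6k2, an inositol phosphate kinase, followed at 0.43, 0.43, 0.45 and 0.45. Like Hamp, all 5 were highest in replicate 1 of ethanol alone and lowest in replicate 2 of the gavage group. That likeness follows from how they were chosen. With 4 libraries, it describes the sizes of these values and no more.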

How the data were processed

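The authors deposited raw read counts, whole numbers without normalisation, with a row per gene symbol and a column per library. Tools listed by the submitters' processing notes are STAR 2.6.0a, HTSeq, bcl2fastq 2.20.0.422 and edgeR, with GRCm38 as genome build. Which annotation was used, whether counting used strand and how reads with several matches were handled is information not given in the sources used here. The comparison ran in edgeR 4.0.16 (R 4.3.3) after filterByExpr (minimum count 10, minimum total 15), which left 13309 genes, and TMM scaling (factors 0.951 to 1.05). The 2-sided quasi-likelihood F-test compared gavage with ethanol alone with no covariate, at a Benjamini-Hochberg threshold of 0.05 over all tested genes. The common dispersion was 0.0966. A floor of 3 counts was 0.0955 to 0.110 CPM, for counting error only. Alternatives used DESeq2 1.42.0, limma-voom 3.58.1, other scalings and filters, and each library left out. Lengths and coordinates came from GENCODE M21 (GRCm38), matched by symbol, with length as the union of exons. Replicates differed by more than sampling noise (chi-square over degrees of freedom 135 within gavage and 126 within ethanol alone). The script was tested on simulated data. The members and lists were chosen with earlier results of these data known. Named genes were all members, 30 listed pathway genes, the smallest p in each direction of each list, and the 5 genes of at least 1 CPM nearest in profile to Lcn2 and to Hamp. Any other gene named, and the lists of sex-biased and Y-linked genes, were chosen after values were seen. Some genes that this rule names are not reported here.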

Additional observations from a re-analysis of the deposited data

How the results depend on the processing

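With 2 libraries a group, calls depended on how the spread was estimated. The quasi-likelihood test called 0 genes (2497 at an unadjusted p under 0.05), 0 members and 0 pathway genes. DESeq2 called 1177 genes, 1 member (Lcn2) and 34 pathway genes. The likelihood-ratio test called 549, 1 (Lcn2) and 13, and limma-voom 0, 0 and 0. With a replicate block, the quasi-likelihood test called 410 genes, 2 members (Lcn2, adjusted p = 0.0052, and Hamp, adjusted p = 0.0196) and 9 pathway genes. The replicate differences of the groups correlated across genes (Pearson 0.587), more weakly by rank (Spearman 0.287). The 2 pairs share only a number, so this is a hint from the data and not from the design. Other scalings and filters called 0. Leaving out each library in turn gave 0 to 31 genes, 0 to 1 members and 0 to 2 pathway genes, with 31 genes and Lcn2 (adjusted p = 0.0409) called without replicate 2 of gavage and 12 genes without replicate 2 of ethanol alone. The Fth1 to Ftl1 ratio averaged 0.976 with exon-union lengths and 1.19 with the longest transcript. Among members, log2 fold changes changed sign for Tfrc without replicate 2 of ethanol alone (0.29) and for Hpx without replicate 1 of gavage (-0.06) or replicate 2 of ethanol alone (-0.19). The other 8 members kept their direction in all 13 alternatives.

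Leaving out each library in turn, log2 fold changes ranged from -1.31 to 0.29 for Tfrc and from -0.19 to 0.44 for Hpx. Other named genes that changed sign were near 0 or unequal within a group. In the same runs Hamp2 ranged from -1.14 to 1.46, Smad6 from -0.38 to 0.11, Creb3l3 from -0.40 to 0.26, Cebpb from -1.38 to 0.047, Cebpd from -0.13 to 0.95, Fbxl5 from -0.0039 to 0.20, Cd163 from -0.58 to 0.64, Slc22a17 from -0.29 to 0.30, Slc30a10 from -0.039 to 0.57 and Pcbp2 from -0.23 to 0.12. With library totals, Creb3l3 was 0.044, Hamp2 0.042 and Pcbp2 0.04. Slc22a17 was -0.025 with upper-quartile factors, and Hamp2 was 0.13 with the replicate block and 0.14 with limma-voom. The cause was not tested.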
